A study of Rattus norvegicus with 6 samples.

Results

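Immediate early genes and genes that respond to glucocorticoids were followed in the substantia nigra pars compacta, the midbrain region whose dopamine neurons supply the striatum. The members were the 8 genes Fos, Jun, Junb, Egr1, Nr4a1, Arc, Dusp1 and Sgk1, each taken by every probe whose RefSeq transcript accession, without its version, belongs to the gene in rat. This found 9 probes for 7 of the 8 genes, among 33849 probes and 4013 named genes on the array. Fos had no probe by this rule and is not analysed here. Of the 9 probes, 7 were above background on at least 3 of the 6 arrays, 1 for each of the 7 genes, and the second probes of Egr1 and Junb were near background on all 6.

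The groups were 3 rats given rotenone, which blocks complex I of the mitochondrial respiratory chain, at 0.5 mg/kg per day for 28 days, and 3 rats given its solvent, dimethylsulfoxide and polyethylene glycol with the surfactant Pluronic F-127, for the same time. Delivery in each group was by an osmotic pump placed under the skin under ketamine and xylazine, so the solvent rats shared the surgery, the anaesthetics and the solvent. All were male Sprague Dawley rats of 5 months, and the RNA of each animal's laser-captured tissue was hybridised to 1 one-colour array. The region holds dopamine neurons together with glia, vessels and other neurons, and in such a bulk sample fewer cells of a type and less RNA per cell cannot be told apart.

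Immediate early genes are transcribed within minutes of a stimulus, without new protein synthesis, when kinase cascades reach factors already bound at their promoters, such as CREB at the cyclic AMP response element and serum response factor at the CArG box. Most of their products are transcription factors, while Arc acts at synapses and Dusp1 switches MAP kinases off again. Dusp1 and Sgk1 are also classic targets of the glucocorticoid receptor, which binds DNA when corticosterone enters the cell. The sources used here do not give how the rats were killed or at what time of day, and these genes respond to handling, anaesthesia and time of day.

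A spot counted as above background where its scanner mark was neither the one for low signal nor the one for masked spots. From 44.2% to 51.5% of the probes of an array met this, and 16708 probes were so on at least 3 arrays and were tested. The dopamine neuron markers Th, Ddc, Slc6a3, Slc18a2, Drd2 and Ret were above background on all 6 arrays. Foxa2 was so in 2 of 3 rats of each group, and Pitx3 in 0 of 3 rotenone and all 3 solvent rats. The array of rotenone rat 16 stood apart from the others, with a mean correlation across probes of 0.931 with the other arrays, against 0.956 to 0.964 for each of the others. The file of solvent rat 7 bears another day than the 5 other files, and a file's day is not known to be that of a scan or an extraction. Results that rest on either array are given without it as well.

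None of the 7 measured genes passed the test between rotenone and solvent rats. Dusp1 was higher in all 3 rotenone rats than in any solvent rat, Arc was near background in all 3 rotenone rats and above it in all 3 solvent rats, and the other 5 genes overlapped between the groups. By limma's moderated test with Benjamini-Hochberg adjustment over all probes, 0 of 16708 probes passed an adjusted p of 0.05 (0%), and 827 had an unadjusted p below 0.05 (4.95%). Of the 7 genes 1, Dusp1, had an unadjusted p below 0.05, with a higher mean in rotenone rats, where 1.99% of tested probes were higher and 2.96% lower at that level. The mean was higher with rotenone for 6 of the 7 genes and lower for 1, with a median difference of 0.13 on the log2 scale, where the median over all tested probes was 0.00893 and 51.6% were higher. The 6 include Sgk1, whose difference was 0.01, and -0.10 with array medians equalised. The median of the members was 0.43 with plain subtraction of the background, 0.38 on the authors' scale and 0.08 without rotenone rat 13. The groups did not overlap for 2 of the 7 genes, against 9.97% of all tested probes. Of the 2, Arc met the filter for testing only through the 3 solvent arrays, so its separation is not independent of that filter. The members were chosen as a set, so their counts are a description.

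**Figure D1:**
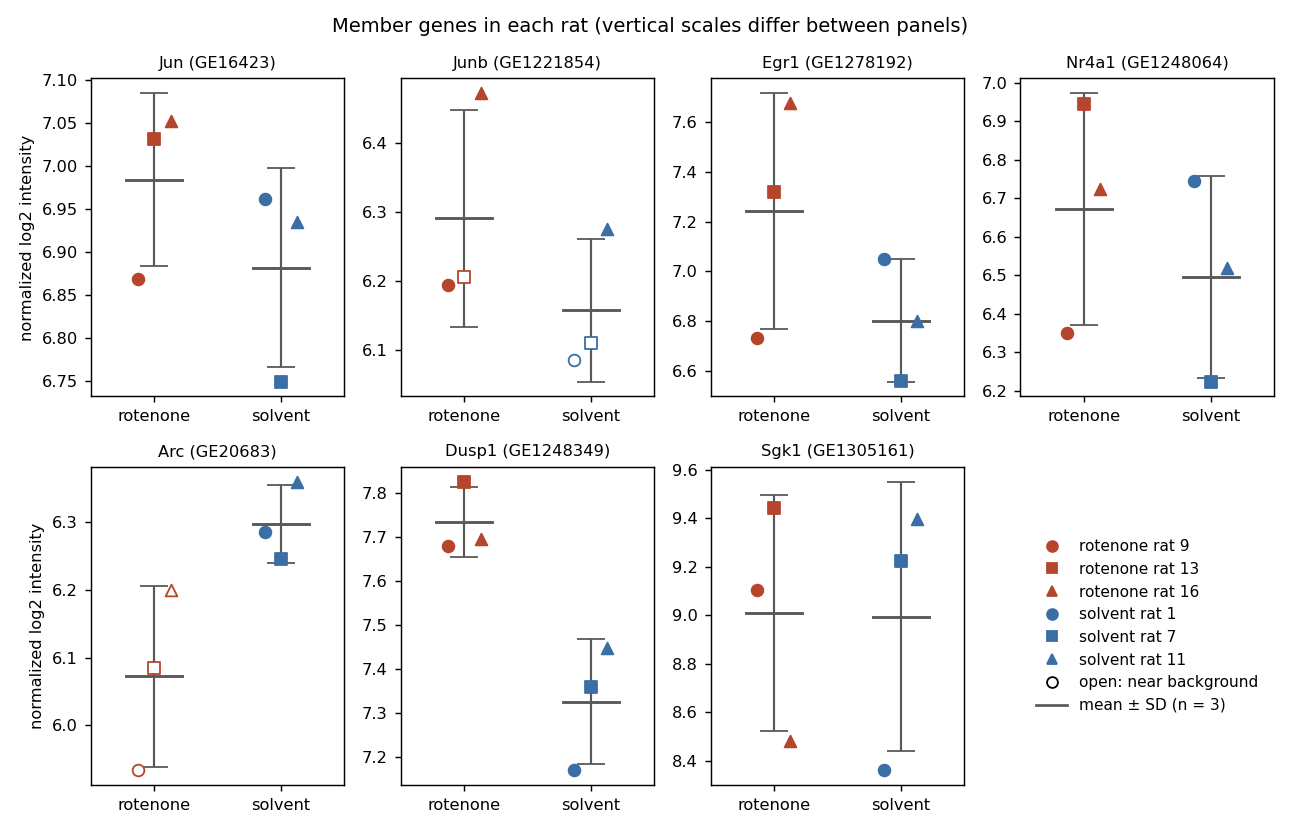
Normalized log2 intensity of the 7 measured genes in each rat, with rotenone rats on the left of each panel, solvent rats on the right, and the group mean and SD (n = 3) as bars. Open symbols mark values near background, and the groups are apart only for Dusp1 (higher with rotenone) and Arc (lower with rotenone).

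Jun and Junb encode subunits of the transcription factor AP-1, which binds DNA as a pair of leucine zipper proteins. In GRCr8, the current rat assembly, Jun lies on chromosome 5 from 115009900 to 115012993 and Junb on chromosome 19 from 40081126 to 40082910. The normalized log2 intensity of Jun (probe GE16423) was 6.87, 7.03 and 7.05 in rotenone rats 9, 13 and 16, against 6.96, 6.75 and 6.93 in solvent rats 1, 7 and 11. Rotenone rat 9 lay among the solvent rats, and solvent rat 7 was the lowest of all. The group means of Jun were 6.98 ± 0.10 with rotenone and 6.88 ± 0.12 with solvent (SD, n = 3 each), a difference of 0.10 with a 95% interval from -0.25 to 0.46 (adjusted p 0.933 in limma). Without solvent rat 7 the difference was 0.04.

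Junb was close to background. Its brighter probe, GE1221854, was at 6.19, 6.21 and 6.47 in rotenone rats 9, 13 and 16, above background in rats 9 and 16, against 6.09, 6.11 and 6.28 in solvent rats 1, 7 and 11, above background only in rat 11. The net signal of this probe, spot mean minus local background, ran from 13.8 to 23.4 over the 6 arrays, and exceeded the 95th percentile of the 256 negative control spots of the same array, 10.8 to 12.2, in all 6. The difference of Junb was 0.13 (95% interval -0.23 to 0.50, adjusted p 0.918 in limma), and 0.05 without rotenone rat 16, the highest value. The log2 scale used here adds an offset of 50 to the signal, which draws values near background together, and with plain subtraction of the background the difference of Junb was 0.51. Its second probe, GE20810, had a net signal of 1.46 to 7.86 and stayed below that percentile on all 6 arrays.

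Egr1, a zinc finger transcription factor that follows neuronal activity and growth factors, differed in mean by more than most of the 7 genes on the log2 scale used here, but with a wide spread. It lies on chromosome 18 from 26737078 to 26740877 (GRCr8). Probe GE1278192 was at 6.74, 7.32 and 7.67 in rotenone rats 9, 13 and 16, against 7.05, 6.56 and 6.80 in solvent rats 1, 7 and 11. Rotenone rats 13 and 16 were above every solvent rat, and rotenone rat 9 was below 2 of them. The means were 7.24 ± 0.47 with rotenone and 6.80 ± 0.25 with solvent (SD, n = 3 each), a difference of 0.44 ± 0.24 (SE) with an adjusted p of 0.895 in limma. The difference was 0.23 without rotenone rat 16 and 0.69 without rotenone rat 9, so a single animal moved it by more than 1.5 times in either direction, and it was 0.75 with plain subtraction of the background. The second Egr1 probe, GE19814, designed on the same transcript accession, had a net signal of 0.143 to 5.93 and was near background in all 6 rats, so the 2 probes of this gene disagree on whether it was detected.

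The window around the Egr1 start is shown because it carries the elements through which this gene is known to be switched on. It spans chr18:26736828-26737127 on the + strand of GRCr8 (RefSeq), 250 bases before to 50 after the first base, with CArG boxes and CGTCA, the core of a cyclic AMP response element, in capitals.
Egr1: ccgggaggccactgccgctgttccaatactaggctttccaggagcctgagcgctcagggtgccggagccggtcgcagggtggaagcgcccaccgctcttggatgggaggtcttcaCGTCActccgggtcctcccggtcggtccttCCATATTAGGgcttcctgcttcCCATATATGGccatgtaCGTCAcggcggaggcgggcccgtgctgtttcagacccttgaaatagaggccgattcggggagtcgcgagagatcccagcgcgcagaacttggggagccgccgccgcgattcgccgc
A script looked on both strands for the CArG box, for the full cyclic AMP response element TGACGTCA, for the short sites CGTCA and TGACG that it contains, for the AP-1 site TGACTCA or TGAGTCA, and for AGAACA and TGTTCT, the short sites of a glucocorticoid response element. The Egr1 window held 2 CArG boxes, CCATATTAGG and CCATATATGG, whose first bases lie at -105 and -83 from the gene's first base, and 2 copies of CGTCA. Of 33469 windows of the same length, 1.64% held a CArG box and 21.2% held CGTCA or TGACG. These are matches of letters, and binding was not measured.

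Nr4a1, an orphan nuclear receptor of the same family as the dopamine neuron factor Nr4a2, lies on chromosome 7 from 134247153 to 134268044 (GRCr8). Its probe GE1248064 was at 6.35, 6.94 and 6.72 in rotenone rats 9, 13 and 16, against 6.74, 6.22 and 6.52 in solvent rats 1, 7 and 11. Rotenone rat 13 was the highest and solvent rat 7 the lowest, with the other 4 intermixed. The means were 6.67 ± 0.30 with rotenone and 6.50 ± 0.26 with solvent (SD, n = 3 each). The difference of 0.18 (95% interval -0.29 to 0.64, adjusted p 0.914 in limma) was 0.04 without solvent rat 7 and 0.34 without rotenone rat 9, and 0.43 with plain subtraction of the background. The window of a Nr4a1 transcript start, chr7:134259888-134260187 on the + strand of GRCr8 (RefSeq), is shown beside that of Egr1 because the 2 genes had one of the higher correlations over the rats. Capitals mark CGTCA.
Nr4a1: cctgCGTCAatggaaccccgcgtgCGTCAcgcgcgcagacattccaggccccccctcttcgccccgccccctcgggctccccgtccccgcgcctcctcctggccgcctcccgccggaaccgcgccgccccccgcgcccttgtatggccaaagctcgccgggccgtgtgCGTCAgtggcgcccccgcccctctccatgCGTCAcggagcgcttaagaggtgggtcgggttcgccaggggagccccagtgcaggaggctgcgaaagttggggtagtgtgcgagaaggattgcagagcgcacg
It held 4 copies of CGTCA and no CArG box, so of the motifs searched only the short site is shared with the Egr1 window. The Junb window held 1 short site, TGACG. The 3 Sgk1 windows held none of the motifs but 1 AP-1 site, TGAGTCA, which 4.63% of all windows held or had as TGACTCA.

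Arc, whose protein sits in dendritic spines and tunes AMPA receptors after synaptic activity, was lower in every rotenone rat, at the lower edge of what the array can measure. It lies on chromosome 7 from 108444959 to 108448413 (GRCr8). Probe GE20683 was at 5.93, 6.08 and 6.20 in rotenone rats 9, 13 and 16, against 6.29, 6.25 and 6.36 in solvent rats 1, 7 and 11. The groups did not overlap. As net signal the values were 5.40, 12.5 and 13.6 in rotenone rats 9, 13 and 16, against 26.2, 22.9 and 27.4 in solvent rats 1, 7 and 11. The scanner marked the spot as near background in all 3 rotenone rats and as good in all 3 solvent rats, a pattern that 0.772% of tested probes shared, while 0.108% had the opposite one. The share of probes above background was 48.6%, 49.1% and 44.2% in rotenone rats 9, 13 and 16, against 51.5%, 51.2% and 49.0% in solvent rats 1, 7 and 11. Its part in the mark of Arc was not tested. The second Egr1 probe, near background throughout, was also lower in every rotenone rat, while the second Junb probe overlapped. By comparison with the negative control spots of the same array, Arc was above their 95th percentile in 5 of 6 rats, all but rotenone rat 9.

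Because Arc was not well above background in rotenone rats, its fold difference is given as a bound on the means of these rats. By this bound the solvent mean was at least 1.15-fold higher than the rotenone mean. Each rotenone array took the lowest value of any probe above background on it, or Arc's own value if higher. The bound does not allow for the spread between rats, and the 95% interval that follows includes 0. The measured means were 6.07 ± 0.13 with rotenone and 6.30 ± 0.06 with solvent (SD, n = 3 each), a difference of -0.22 with a 95% interval from -0.58 to 0.13 and an adjusted p of 0.895 in limma. The exact permutation test over rats gave p = 0.1 (two-sided), the smallest that 3 against 3 allow. Arc met the filter for testing through the solvent rats alone, so this p and the one below are not independent of that filter. The offset draws the difference towards 0. With plain subtraction of the background the difference was -1.09 (unadjusted p 0.0447) and with an offset of 16 it was -0.43.

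Arc is expressed in neurons, whose markers differed by list. Of 12 general markers of neurons 6 were measured, all 6 with lower means, where 51.6% of tested probes had higher ones. Of the 6, 3 had an unadjusted p below 0.05 in limma, where 2.96% of tested probes were lower at that level. Rotenone rats 9 and 13 were below the solvent mean for Ina, Gap43, Syn1 and Syn2, but above it for Nefl and Nefm. The summed intensity, with Gap43 the brightest, was 3504 to 5584 in rotenone rats and 5763 to 6771 in solvent rats. Snap25 was near background on too many arrays to be tested, and the other markers without a value had no named probe. Of 8 measured markers of dopamine neurons 4 had higher and 4 lower means in rotenone rats (median difference -0.07). Among the lower, Pitx3 was above background in 0 of 3 rotenone and all 3 solvent rats. Like Arc, it met the filter through the solvent rats alone. Only Slc6a3 did not overlap between the groups (difference -0.20). Of 4 markers of GABA neurons 1 had a higher and 3 a lower mean (median -0.04). Only Gad2 of these did not overlap (difference -0.41, adjusted p 0.895 in limma). It was above background in 1 of 3 rotenone and 2 of 3 solvent rats. Of all tested probes 9.97% did not overlap. The part of these markers in the difference of Arc was not tested. The general markers were lowest in rotenone rat 16, with a median of -0.71 against the solvent mean, where Arc was highest among the rotenone rats. Without rotenone rat 16 the difference of Arc was -0.31.

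Dusp1 encodes a nuclear phosphatase that inactivates the MAP kinases p38, JNK and ERK, and lies on chromosome 10 from 17184853 to 17187646 (GRCr8). Probe GE1248349 was at 7.68, 7.83 and 7.70 in rotenone rats 9, 13 and 16, against 7.17, 7.36 and 7.45 in solvent rats 1, 7 and 11. All 3 rotenone rats were above all 3 solvent rats, an order with rotenone higher that 5.08% of tested probes showed. The means were 7.73 ± 0.08 with rotenone and 7.33 ± 0.14 with solvent (SD, n = 3 each), a difference of 0.41 ± 0.16 (SE) with a 95% interval from 0.05 to 0.77. The unadjusted p was 0.0286 and the adjusted p 0.895 in limma. The exact permutation p was 0.1, again the smallest possible.

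The separation of Dusp1 depended on the scaling between arrays. As unscaled net signal it was 145.6, 179.0 and 117.9 in rotenone rats 9, 13 and 16, against 99.0, 118.8 and 123.3 in solvent rats 1, 7 and 11, so rotenone rat 16 lay within the solvent range. The array of that rat had the lowest median net signal over all probes, 11.7, where the others had 13.9 to 16.6. After the authors' scaling of each array to about its median, Dusp1 was at 10.4, 12.1 and 10.1 times that scale in rotenone rats 9, 13 and 16, against 5.92, 7.39 and 8.41 in solvent rats 1, 7 and 11. The groups did not overlap on that scale. The difference ran from 0.33 without solvent rat 1 to 0.47 without solvent rat 11, and was 0.43 without rotenone rat 16. With array medians equalised it was 0.30, at an unadjusted p of 0.107.

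The window around the Dusp1 start, chr10:17184603-17184902 on the + strand of GRCr8 (RefSeq), is shown because Dusp1 was the member with an unadjusted p below 0.05. Capitals mark TGACGTCA and the short site TGACG.
Dusp1: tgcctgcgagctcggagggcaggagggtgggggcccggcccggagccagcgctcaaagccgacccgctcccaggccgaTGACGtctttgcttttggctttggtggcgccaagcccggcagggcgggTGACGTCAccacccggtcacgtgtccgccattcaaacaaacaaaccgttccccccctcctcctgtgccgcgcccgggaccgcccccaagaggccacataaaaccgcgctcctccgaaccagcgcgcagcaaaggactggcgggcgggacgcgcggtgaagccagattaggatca
It held the full cyclic AMP response element TGACGTCA, with its first base at -124 from the gene's first base and overlapping a TGACG and a CGTCA, and 1 further TGACG. Of all windows 1.83% held TGACGTCA. AGAACA and TGTTCT were in none of the 7 windows found for 5 of the members, where 20.7% of all windows held one of them. Nothing is drawn from this about the receptor.

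Sgk1 is a kinase that keeps sodium channels and other transporters at the membrane and is induced by glucocorticoids and mineralocorticoids, in brain also in oligodendrocytes. It lies on chromosome 1 from 24799391 to 24916886 (GRCr8). Its probe GE1305161 was well above background everywhere, with a net signal of 252.5 to 633.8. The log2 intensity was 9.11, 9.44 and 8.48 in rotenone rats 9, 13 and 16, against 8.36, 9.23 and 9.40 in solvent rats 1, 7 and 11. Each group held 1 low rat, rotenone rat 16 and solvent rat 1, and the remaining 4 rats lay close together. The means were 9.01 ± 0.49 with rotenone and 8.99 ± 0.56 with solvent (SD, n = 3 each), a difference of 0.01 (95% interval -0.67 to 0.70, adjusted p 0.997 in limma). The interval leaves room for a change of more than 1.5-fold in either direction. The difference was -0.30 without solvent rat 1 and 0.27 without rotenone rat 16, and it was -0.10 with array medians equalised, so it has no settled direction.

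**Figure D2:**
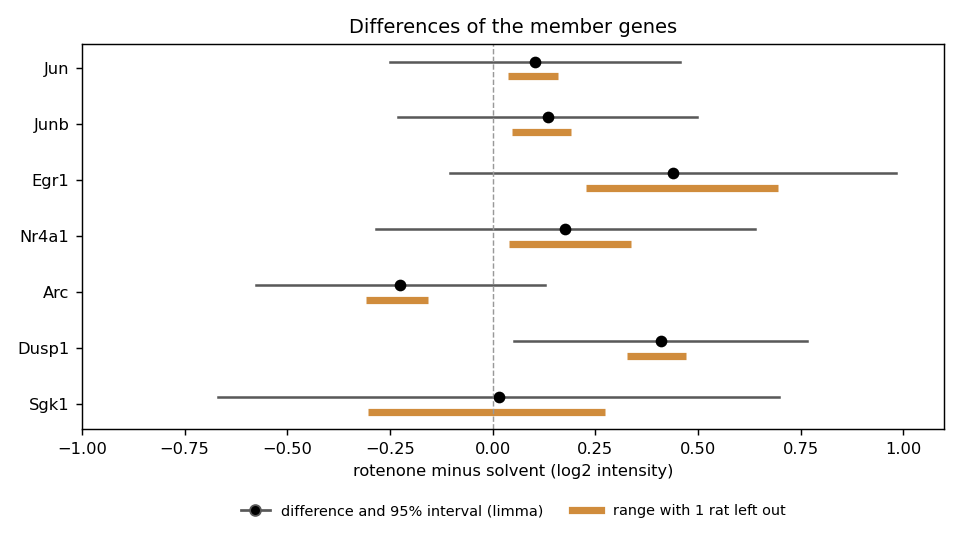
Difference between rotenone and solvent rats (log2 intensity, horizontal axis) for each measured gene, with its 95% interval from limma as a grey line and the range of the difference with each rat left out in turn as an orange bar. The interval of Dusp1, 0.05 to 0.77, is the only one that leaves out 0, before adjustment over all probes, and the orange bar of Sgk1 crosses 0.

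The genes differed in how much rats of the same group varied. The pooled SD within groups was 0.52 for Sgk1, at least as large as that of 93.4% of the 1824 tested probes within 0.5 log2 units of its mean, whose median was 0.26. Egr1, with 0.38, exceeded 84.7% of 5703 such probes and Nr4a1, with 0.28, exceeded 74.1% of 7998. Jun and Dusp1 varied little, with 0.11 and 0.12, at the 7.47 and 5.38 percentile of the probes like them. For Sgk1 this spread was larger than the difference between the groups, and for Dusp1 it was smaller.

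The 3 highest correlations over the rats were among the transcription factor genes Jun, Egr1 and Nr4a1, though no pair passed the adjusted test. The order of the rats was the same for Jun and Egr1, from solvent rat 7 over rotenone rat 9, solvent rat 11, solvent rat 1 and rotenone rat 13 to rotenone rat 16. All 21 pairs of the 7 genes were compared, and the p values are from exact permutation tests over the 6 rats, two-sided. For rho their smallest value is 0.00278, and for r it can be lower. For Jun and Egr1 Pearson's r was 0.91 (p = 0.0111, adjusted 0.146) and Spearman's rho was 1 (p = 0.00278, adjusted 0.0583). For Jun and Nr4a1 r was 0.91 (p = 0.0139, adjusted 0.146) and rho 0.83 (p = 0.0583, adjusted 0.408), and for Egr1 and Nr4a1 r was 0.81 (p = 0.0625, adjusted 0.438) and rho 0.83 (p = 0.0583, adjusted 0.408) by the same exact test. None of the 21 pairs passed an adjusted p of 0.05 by either measure. For rho, the adjusted 0.0583 of Jun and Egr1 is the lowest that 1 pair alone can reach with 6 rats, so the lack of a call by rho says little. That limit does not hold for r. Of the 21 pairs 2 had an unadjusted p below 0.05 for r.

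These correlations were recomputed with rats left out. Without the 2 rats farthest from the median of the first gene, r was 0.95 for Jun and Egr1, 0.98 for Jun and Nr4a1 and 0.98 for Egr1 and Nr4a1, and without the 2 farthest for the second gene it was 0.91, 0.85 and 0.74. With the group means taken out, so that the difference between the groups does not enter, r was 0.88, 0.91 and 0.79 for the same pairs, but other pairs were then as high, with 0.87 for Egr1 and Arc, 0.87 for Dusp1 and Sgk1 and 0.84 for Junb and Arc. Without solvent rat 7, whose file bears another day and which had the lowest value of all 3 genes, it was 0.94, 0.86 and 0.71, and without rotenone rat 16 it was 0.93, 0.95 and 0.99. A group holds 3 rats, too few for a value within each group, and only solvent rat 7 has its file's day. The arrays share their scaling, and among all pairs of 1714 named genes above background on all 6 arrays the median r was 0.00736 and 1.81% of pairs exceeded 0.9.

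Dusp1 and Sgk1 put the rats in other orders. Dusp1 correlated with Jun at r = 0.44 and with Egr1 at 0.47 (exact permutation p = 0.404 and 0.344, adjusted 0.793 for both), and with the group means taken out at -0.05 and -0.17. Sgk1 correlated with Jun at r = -0.32 and with Egr1 at -0.46 (exact permutation p = 0.547 and 0.346, adjusted 0.884 and 0.793). The 2 targets of the glucocorticoid receptor had r = 0.38 and rho = 0.49 with each other (exact permutation p = 0.415 and 0.356, adjusted 0.793 and 0.747). That r was 0.87 with the group means taken out, 0.71 without rotenone rat 16 and 0.50 without solvent rat 7, but -0.72 without the 2 rats farthest from the median of Dusp1 and 0.19 without those farthest for Sgk1, so it rests on which rats are kept. Over the 21 pairs r was above 0 for 13, with a median of 0.27. Of the 10 pairs of members above background on all 6 arrays, 7 had r above 0, with a median of 0.41. Of the pairs of named genes above background on all 6 arrays, 50.4% were above 0.

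**Figure D3:**
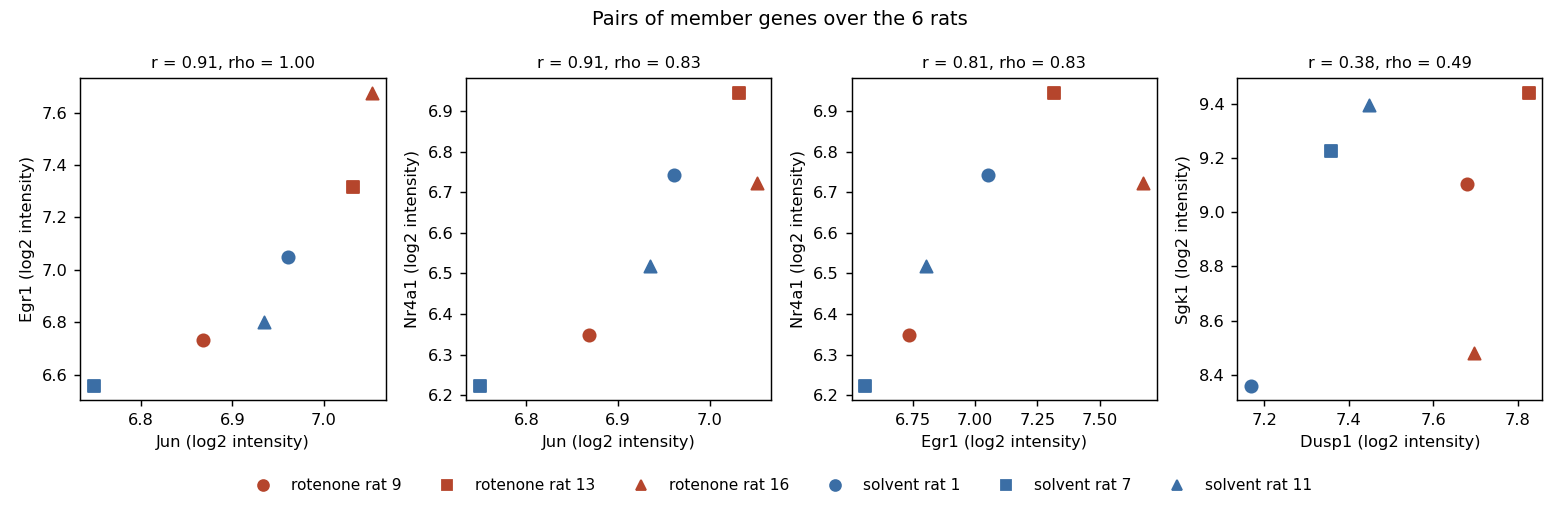
Each panel plots 2 member genes against each other over the 6 rats (normalized log2 intensity on each axis), with rotenone rats in red and solvent rats in blue. Jun and Egr1 put the rats in the same order (rho = 1), Nr4a1 correlates with them at r = 0.91 and 0.81, and Dusp1 and Sgk1 at r = 0.38.

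The genes with profiles most like the members were looked for among 1709 other named genes above background on all 6 arrays, by Pearson's r over the 6 arrays. With so many genes and 6 arrays high values of r are common. Closest to Jun were Nrxn2, a presynaptic adhesion protein (r = 0.99), and Maged2 (r = 0.98), and 17 genes exceeded 0.9. Closest to Egr1 were Nr1d1, a repressor of the circadian clock (r = 0.97), and Chrna5, a nicotinic receptor subunit (r = 0.97), and 36 genes exceeded 0.9. For Nr4a1 these were Cd52 and Ybx3 (0.95 each), for Dusp1 the membrane traffic GTPase Rab1a (0.98) and Skap2 (0.92), and for Sgk1 Gprasp1 and Ggh (0.98 each), with 10, 2 and 47 genes above 0.9. Rab1a was at 11.57, 11.62 and 11.49 in rotenone rats 9, 13 and 16, against 11.15, 11.30 and 11.33 in solvent rats 1, 7 and 11. Like Dusp1 it was higher in every rotenone rat than in any solvent rat, as were 5.08% of tested probes. Its choice by likeness to Dusp1 on the same arrays made this likely beforehand. The average profile of the 7 members was followed most closely by Mapk15, Smad4, Phox2a and Clcn1 among the genes reported here, with r from 0.95 to 0.99.

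Of 47 other immediate early genes, 28 were on the array by name and 16 were measured. None passed the test in either direction, 6 had higher and 10 lower means with rotenone, and the median difference was -0.12, or -0.04 without rotenone rat 16. Nr4a2, the dopamine neuron factor of the Nr4a family, had the lowest p of the list, at 7.44, 6.39 and 5.93 in rotenone rats 9, 13 and 16, against 7.53, 7.39 and 7.20 in solvent rats 1, 7 and 11. Rotenone rat 9 lay within the solvent range and the other 2 rotenone rats below it. The difference of -0.79 (unadjusted p 0.0342, adjusted 0.895 in limma) was -0.47 without rotenone rat 16 and -1.22 without rotenone rat 9. Nr4a2 was above background in 2 of 3 rotenone rats and in all 3 solvent rats, and the difference was -2.07 with plain subtraction of the background. It thus had the opposite sign to that of its relative Nr4a1. The stem cell and vascular factor Klf4 differed by -0.24 and Rgs2, which dampens signalling of Gq-coupled receptors, by 0.26, with overlapping groups and an adjusted p of 0.895 for each in limma. Klf4 was above background in 1 of 3 rotenone rats and in all 3 solvent rats, and differed by -1.03 with plain subtraction, while Rgs2 differed by 0.13 without solvent rat 1. The groups did not overlap for any of the 16, against 9.97% of all tested probes. The other MAP kinase phosphatases were represented by Dusp5 alone, which differed by -0.08, or by 0.02 without solvent rat 11.

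Of 28 other genes known to respond to glucocorticoids, 17 were on the array by name and 14 were measured. None passed the test, 9 had higher and 5 lower means with rotenone, and the median difference was 0.07, but -0.03 with array medians equalised. Anxa1, a mediator of the anti-inflammatory action of glucocorticoids, was at 9.15, 8.15 and 8.91 in rotenone rats 9, 13 and 16, against 8.05, 8.25 and 8.02 in solvent rats 1, 7 and 11. Rotenone rats 9 and 16 were above every solvent rat and rotenone rat 13 was among them. Its difference was 0.63 (unadjusted p 0.0280, adjusted 0.895 in limma).

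Tsc22d3, which encodes the glucocorticoid-induced leucine zipper protein, was at 6.74, 6.64 and 6.78 in rotenone rats 9, 13 and 16, against 6.34, 6.58 and 6.34 in solvent rats 1, 7 and 11. The connexin gene Gjb6 of astrocytes was at 9.74, 9.88 and 9.97 in rotenone rats 9, 13 and 16, against 9.67, 9.33 and 9.63 in solvent rats 1, 7 and 11. Like Dusp1, these genes did not overlap between the groups, and their differences were 0.30 and 0.32, with an adjusted p of 0.895 for each in limma. That of Tsc22d3 was 0.75 with plain subtraction of the background, and that of Gjb6 was 0.21 without solvent rat 7. They were 2 of 14 genes, against 9.97% of all tested probes. Of 6 measured astrocyte markers 3 had higher and 3 lower means in rotenone rats, with a median difference of -0.07. Their summed intensity was 13527 to 15971 in rotenone rats and 13416 to 14387 in solvent rats. Its brightest gene was Glul, which is also among the 14 glucocorticoid-responsive genes. The part of these markers in the difference of Gjb6 was not tested.

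The receptors and enzymes that set the glucocorticoid signal were thinly covered, with 3 of 13 genes measured. The mineralocorticoid receptor Nr3c2 differed by -0.11, Hsd11b1, which regenerates active corticosterone, by 0.10, and Pdpk1, the kinase that activates Sgk1, by -0.34, none of them past the test (smallest adjusted p 0.895 in limma). The difference of Hsd11b1 was -0.07 without solvent rat 11 and 0.25 without solvent rat 7. Leaving out rotenone rat 16 gave 0.04 for Nr3c2, leaving out rotenone rat 13 gave -0.39 for it, and leaving out solvent rat 1 gave -0.18 for Pdpk1.

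Of 28 genes of the signalling that switches immediate early genes on, 8 were measured, 2 with higher and 6 with lower means in rotenone rats, and a median difference of -0.27, or -0.16 without rotenone rat 16. None passed the test. Mapk14, the p38 kinase that Dusp1 inactivates, was at 7.51, 7.72 and 7.41 in rotenone rats 9, 13 and 16, against 8.42, 7.75 and 8.17 in solvent rats 1, 7 and 11. The groups did not overlap, though rotenone rat 13 and solvent rat 7 were close, and the difference was -0.56 (unadjusted p 0.0187, adjusted 0.895 in limma). The kinase gene Map2k2 differed by -0.37 without overlap, or -0.23 without rotenone rat 16. Of the 8 genes 3 did not overlap between groups, all with lower values in rotenone rats, against 4.89% of all tested probes. The general neuron markers given for Arc also had lower means in rotenone rats, for Nefl and Nefm only with rotenone rat 16 included. Their part was not tested.

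**Figure D4:**
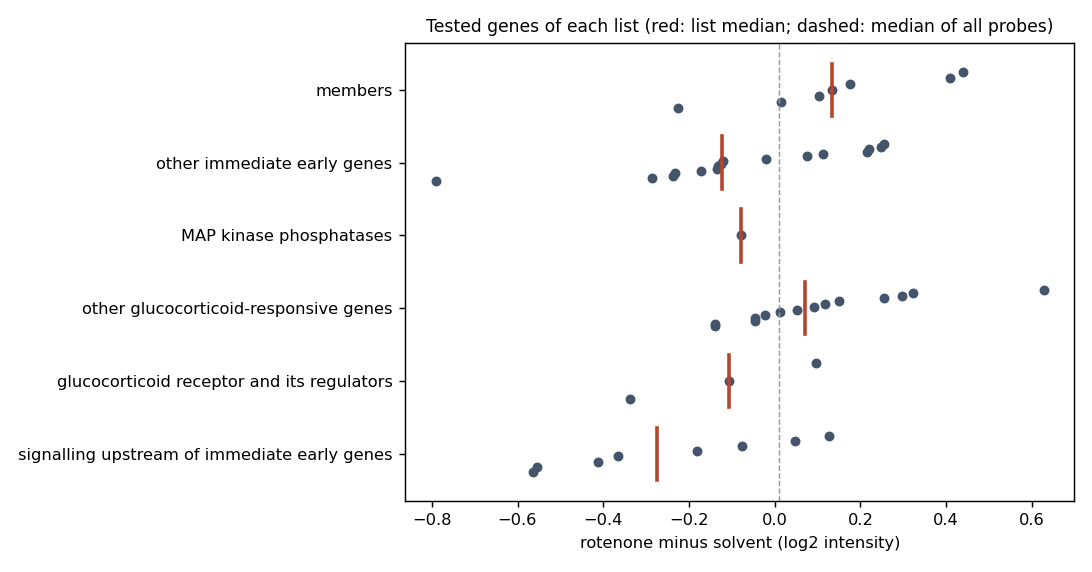
Difference between rotenone and solvent rats (log2 intensity, horizontal axis) for each measured gene, 1 point per gene, in the 7 measured members and in 5 lists of related genes. Red lines are list medians, from -0.27 for upstream signalling to 0.13 for the members, and no point passed the adjusted test.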

How the data were processed

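Each rat gave 1 one-colour array. The authors deposited, for each spot, intensity values: the spot mean, the median of the local background, their difference, and that difference divided by a constant of the array near its median, per the file headers and the values themselves. The sources used here do not name the scanner software, and the deposited value table was not used. Probes were named by RefSeq accession through a RefSeq table of GRCr8, and sequences are RefSeq's.

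After removal of control spots, background was corrected with normexp (offset 50) and quantile normalization was applied on the log2 scale. Probes above background on at least 3 of 6 arrays were tested with limma 3.58.1 (R 4.3.3), two-sided, without covariates, with Benjamini-Hochberg adjustment over all tested probes, and the code was tested on simulated data. Every spot was kept, because 97.9% to 99.0% of probes whose net signal exceeds 100 carry the scanner's irregular mark. All 6 spots of Jun, Dusp1 and Sgk1 also carry it. The number of arrays limits the precision.

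Named are all members, 3 genes per list by lowest p, and the genes most alike in profile (5 for the mean profile, 2 for each member above background on all arrays), and some genes that this rule names are not reported here. Members, lists and tests were chosen with earlier results of these data known. Alternatives were other normalization, background correction, offset, filters, marked spots left out, the authors' scaling, a variance trend, the file's day as a block, and each rat left out.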

Additional observations from a re-analysis of the deposited data

How the results depend on the processing

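Under the 16 alternatives none of the members was called, and 0 to 2 had an unadjusted p below 0.05. None of the 5 lists held a called gene, and none of the 21 pairs of members (10 where only genes above background on all 6 arrays were kept) was called in the 7 alternatives run for pairs. Within-group permutation allows 36 pairings, so that a pair alone could not pass there. Over all probes the count of calls was 2 of 3910 with marked spots left out, where only Arc, Junb and Nr4a1 could be tested, and from 0 to 3 with a rat left out, the 3 without solvent rat 1 being Cdon and 2 unnamed probes. The other alternatives gave 0. The difference of Sgk1 turned to -0.10 with median scaling and -0.022 with cyclic loess, and lay between -0.30 and 0.27 with a rat left out, below 0 without rotenone rat 9, rotenone rat 13 or solvent rat 1. The difference of each other member kept its direction wherever it could be fitted, with Arc from -1.15 to -0.22 outside the fits without a rat. With the file's day as a block Dusp1 differed by 0.43 and Egr1 by 0.32, as without solvent rat 7. No paired analysis was possible because the groups share no replicate numbers. Signals near background limit Arc and Junb most.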
